A study of Mus musculus with 20 samples.

Results

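The 10 genes described here belong to the interleukin-7 (IL-7) signalling pathway and were followed in chromatin-associated RNA of B3 cells after IKZF1 induction. They were taken by name as the IL-7 receptor chains (Il7r, Il2rg), the receptor-bound kinases (Jak1, Jak3), the STAT5 transcription factors (Stat5a, Stat5b) and the feedback inhibitors of the SOCS family (Cish, Socs1, Socs2, Socs3). All 10 were found among the 56239 genes counted, and 8 of them were among the 16601 genes with enough counts for a test. At 24h Il7r (3.19-fold), Jak1 (2.34-fold), Stat5b (2.51-fold), Cish and Socs1 stood above 0h. Jak3 and Stat5a stood below it, and so did Socs2 (2.79-fold lower), which had fallen from 30 min on. Cish and Socs1 had few counts at 0h (18 and 14 in both libraries together) and were tested only through later, higher libraries.

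B3 is a mouse line that was first derived from a lymphoma and has the features of pre-B cells. Every library, 0h included, came from B3 cells transduced with a retrovirus that carries IKZF1 (the zinc finger factor Ikaros) fused to the ERt2 ligand-binding domain. Their growth medium was IMDM with serum, and no IL-7 is listed for it. The fusion protein moves into the nucleus when 4-hydroxytamoxifen (4-OHT) is added. Collection was before 4-OHT (0h) or 30 min, 1h, 2h, 6h, 12h, 15h, 18h, 21h or 24h after 500 nM 4-OHT. This makes 10 time points in duplicate. RNA bound to chromatin, which is rich in unspliced and newly made transcripts, was sequenced. No library of cells with an empty vector or without the fusion was analysed here, so IKZF1 induction, 4-OHT itself and time in culture cannot be told apart in any contrast with 0h.

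IL-7 is the main growth and survival signal of early B cells in the mouse bone marrow. Its receptor pairs the alpha chain encoded by Il7r with the common gamma chain encoded by Il2rg, and these chains carry JAK1 and JAK3. The kinases phosphorylate STAT5A and STAT5B, which enter the nucleus and switch on, among others, genes of the SOCS family, whose proteins then dampen the receptor. Loss of IL-7 signalling is a step in the passage from cycling to resting pre-B cells.

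Total counts per library ran from 33296158 to 46868954, with a median of 40943260. Values below are CPM (counts relative to the library's total, scaled with TMM factors), and "rose" and "fell" mean an adjusted p-value under 0.01 in edgeR's quasi-likelihood test against 0h unless another time point is named. "Called" means that the change was in addition over 2-fold. The replicates at 12h and 18h differed from each other more than those at the other time points, with a chi-square per degree of freedom between their counts of 9.95 and 14.9, against 1.26 to 4.78 elsewhere. Ikzf1 itself was at 4840 CPM in both 0h libraries and between 4740 and 9430 CPM later, which checks neither the fusion nor its move to the nucleus. The B lineage markers summed to 7820 to 16100 CPM in each library, most of it from Ebf1 at 5860 CPM or more, although Rag1 and Rag2 were listed at 0 in all 20. Single markers moved apart by 24h, with the surrogate light chain genes Igll1 and Vpreb1 down (log2 -7.42 and -5.56) and Blnk and Cd79b up (log2 4.35 and 2.29). Summed T cell, myeloid, erythroid and fibroblast markers did not exceed 2.19, 2.18, 0.677 and 0.0467 CPM. In such bulk samples fewer cells of one kind and less RNA per cell cannot be told apart.

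**Figure D1:**
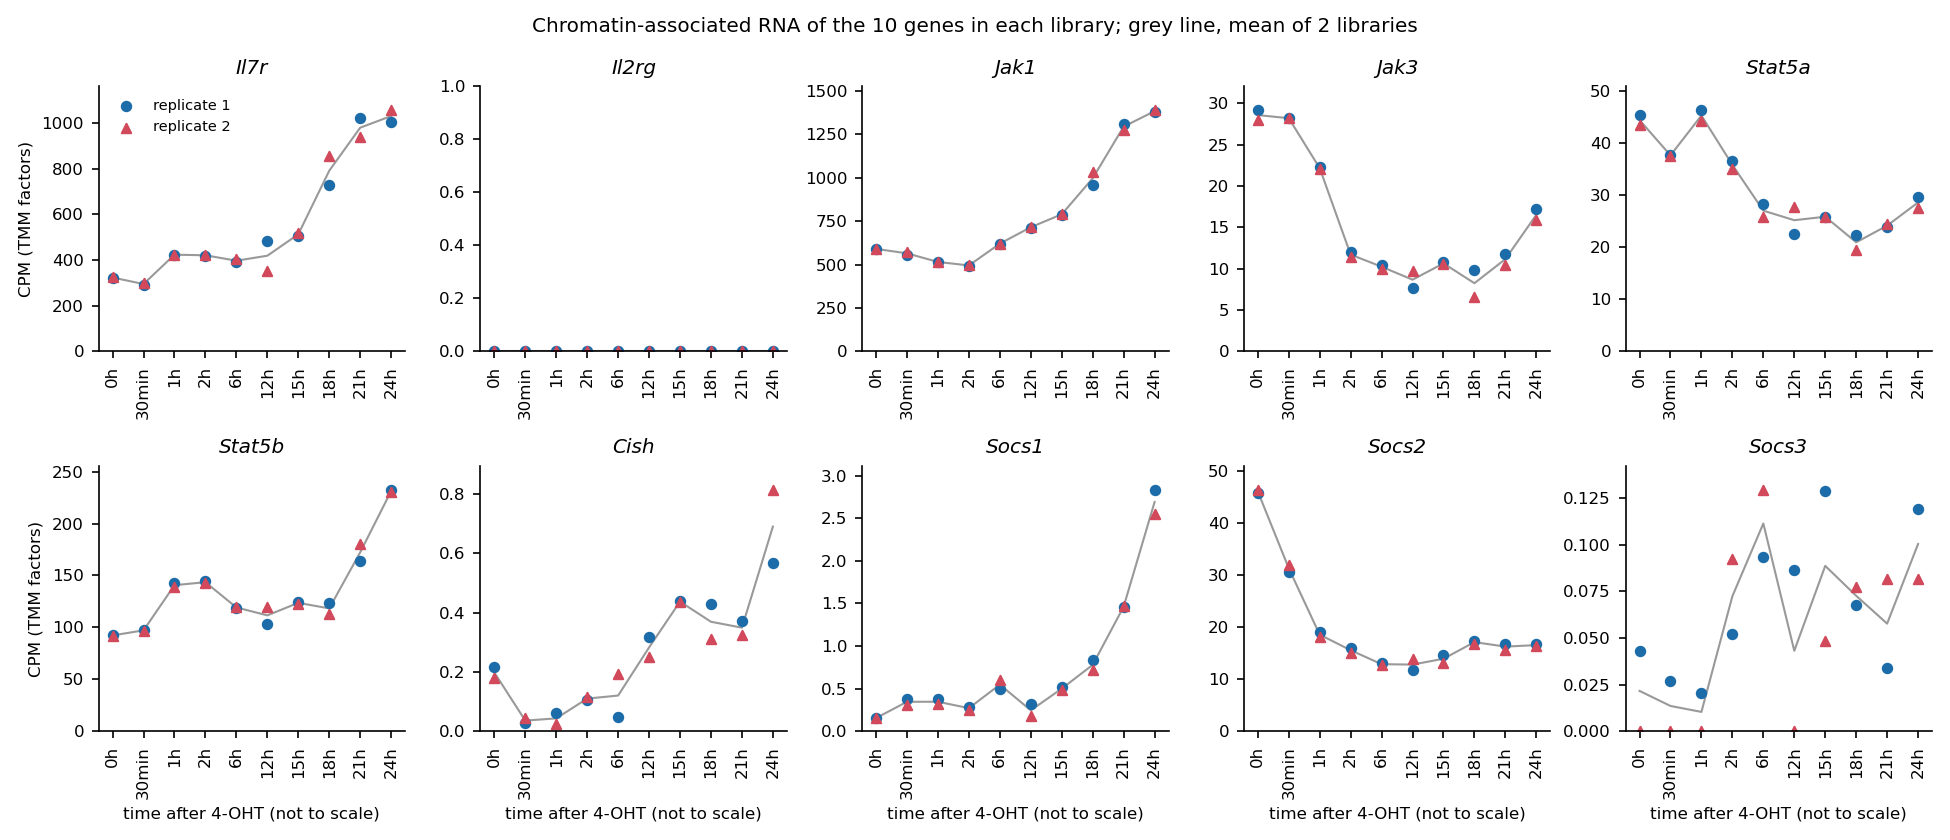
CPM (TMM factors, linear axes from 0) of each of the 10 genes in all 20 libraries, with time points in order but not to scale; circles and triangles are replicates 1 and 2, and the grey line joins their means. Il7r, Jak1, Stat5b and Socs1 were highest at 21h and 24h, Socs2 was highest at 0h, and Il2rg was listed at 0 throughout.

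Promoter windows were searched because STAT5 and IKZF1 both have known recognition letters. Only the windows of Cish, Il7r and Socs1 are printed here, and other genes with called changes are not shown. RefSeq gave a window from 250 bases before to 50 bases after a start site on GRCm38.p6 for 9 of the 10 genes. The gene without a window was Socs2, whose promoter was therefore not searched. The following letter patterns were searched on both strands, the palindromic STAT pattern TTCNNNGAA and the IKZF1 core TGGGAA. The Cish window lies at chr9:107296409-107296708 on the + strand and holds 2 STAT matches, which are in capitals and begin at bases 1 and 12 counted from the start site. The Il7r window lies at chr15:9529827-9530126 on the - strand and holds 1 STAT match, also in capitals, which begins at base -142. The Socs1 window lies at chr16:10785487-10785786 on the - strand and holds no STAT match but 1 TGGGAA, which begins at base -169 and is in lower case here.
Cish: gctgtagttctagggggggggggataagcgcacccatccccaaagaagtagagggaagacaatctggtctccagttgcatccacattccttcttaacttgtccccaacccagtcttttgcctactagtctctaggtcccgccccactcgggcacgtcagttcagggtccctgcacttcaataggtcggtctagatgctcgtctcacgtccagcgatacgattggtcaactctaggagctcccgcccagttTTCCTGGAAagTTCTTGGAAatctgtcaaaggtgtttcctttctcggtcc
Il7r: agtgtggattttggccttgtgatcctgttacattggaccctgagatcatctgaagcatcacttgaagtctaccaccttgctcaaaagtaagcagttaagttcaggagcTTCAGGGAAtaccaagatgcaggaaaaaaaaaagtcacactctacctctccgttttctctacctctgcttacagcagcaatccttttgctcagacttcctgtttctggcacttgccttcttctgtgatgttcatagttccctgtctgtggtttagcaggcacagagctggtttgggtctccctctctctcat
Socs1: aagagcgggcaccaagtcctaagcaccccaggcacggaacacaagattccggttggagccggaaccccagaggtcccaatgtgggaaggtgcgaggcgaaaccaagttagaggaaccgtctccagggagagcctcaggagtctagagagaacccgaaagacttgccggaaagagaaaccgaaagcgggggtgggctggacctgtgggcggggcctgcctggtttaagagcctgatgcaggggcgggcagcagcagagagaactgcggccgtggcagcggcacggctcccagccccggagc
The Socs3 window held 1 STAT match (TTCTTAGAA, at base -154), and none was present in the windows of Il2rg, Jak1, Jak3, Stat5a, Stat5b or Socs1. TGGGAA was also present in the Il2rg window, at base -241, and in none of the windows of Il7r, Jak1, Jak3, Stat5a, Stat5b, Cish or Socs3. The authors counted IKZF1 motifs by the shorter patterns GGAA and GGGA and their reverse complements. Those were not searched here, and a window without TGGGAA may hold them. Among all 32817 promoter windows of the same length, 8.29% held the STAT pattern and 25.6% held TGGGAA. A match is a description of the letters and says nothing of binding.

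Il7r (ENSMUSG00000003882, chromosome 15, 9505788 to 9530176, - strand, GRCm38), the alpha chain that binds IL-7, rose in a small early step and a large late one. It had the highest level per kb of gene body of the 10 genes with Il2rg left out, whose level is not known. Its CPM was 321 and 326 (0h), 290 and 301 (30 min), 423 and 424 (1h), 418 and 424 (2h), and 391 and 403 (6h). The 1h and 2h values lay above both 0h values, and the step from 30 min to 1h was 0.52 on the log2 scale (SE 0.0899, adjusted p = 6.79e-05). From there Il7r reached 506 and 520 CPM (15h), 728 and 855 (18h), 1022 and 938 (21h), and 1005 and 1057 (24h). The 24h libraries were 3.19-fold above 0h (log2 1.67, SE 0.091, adjusted p = 2.26e-13). The step from 15h to 18h was the only later one that passed (log2 0.63, SE 0.0889, adjusted p = 1.05e-05). At 12h the replicates parted, at 485 and 353 CPM, and the rise there (log2 0.37, adjusted p = 0.000945) was 0.125 with an adjusted p of 0.092 without replicate 1. The early rise kept its size but came close to the threshold. At 1h and 2h it no longer passed without 0h replicate 1 (log2 0.374 and 0.365, adjusted p = 0.0145 and 0.0127). At 6h it did not pass without any 1 of the 4 libraries compared (log2 from 0.275 to 0.320, adjusted p from 0.0192 to 0.0431) or with DESeq2's test (log2 0.275, adjusted p = 0.0374).

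Il2rg (ENSMUSG00000031304), the gamma chain shared with the receptors of several other cytokines, was listed at 0 in all 20 libraries and could not be tested. The gene (chromosome X, 101264378 to 101268255, GRCm38) lies wholly within Gm20489, an annotated gene on the same strand, which had 4 to 40 counts per library. Of 435 protein-coding genes that lie wholly inside another gene on the same strand, 433 (99.5%) were at 0 in all libraries. The share was 99.3% of 758 genes inside a gene on the opposite strand only, against 18.9% of 11899 genes that overlap no other gene and 4.5% of 8884 with partial overlap. A count of 0 in this position, where nearly every gene was at 0, sets no upper limit on the RNA of Il2rg. Rag1 and Rag2 also lie wholly inside another gene, B230118H07Rik.

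The genes of the kinases bound to the receptor both fell by 2h and stood on opposite sides of 0h at 24h. Jak1 (ENSMUSG00000028530, chromosome 4, 101152367 to 101265282, - strand), which binds the alpha chain, dipped and then climbed. It was at 590 and 591 CPM (0h), 491 and 499 (2h), 621 and 621 (6h), 788 and 791 (15h), 960 and 1035 (18h), and 1378 and 1390 (24h). The dip at 2h was small but outside the spread of the replicates (log2 -0.25, SE 0.0336, adjusted p = 1.32e-06), and the rise at 24h was 2.34-fold (log2 1.23, SE 0.0339, adjusted p = 1.28e-18). Between 2h and 24h the rise was 2.79-fold (log2 1.48, adjusted p = 1.01e-19), and each step from 2h to 21h passed the test.

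Jak3 (ENSMUSG00000031805, chromosome 8, 71676296 to 71690575, + strand), which binds the gamma chain, fell between 30 min and 2h and had partly come back by 24h. Its CPM was 29.2 and 28.0 (0h), 28.2 and 28.2 (30 min), 22.3 and 22.0 (1h), and 12.0 and 11.4 (2h). The 2h libraries were both under every earlier library, a 2.44-fold fall (log2 -1.29, SE 0.107, adjusted p = 1.19e-09). The smaller fall at 1h (log2 -0.37, adjusted p = 0.00426) was about as large but did not pass without any 1 of the 4 libraries compared (log2 from -0.398 to -0.339, adjusted p from 0.016 to 0.0406). Levels of 6.59 to 11.8 CPM followed from 6h to 21h, lowest in 18h replicate 2 and with 9.90 in the other 18h library. At 24h Jak3 was at 17.2 and 15.9 CPM, below 0h (log2 -0.79, SE 0.105, adjusted p = 5.64e-07) but above 2h (log2 0.50, SE 0.115, adjusted p = 0.000591). The last step, from 21h to 24h, passed by itself (log2 0.57, adjusted p = 0.00229). The rise from 2h to 24h was nearly as large but just missed the threshold without 2h replicate 2 (log2 0.456, adjusted p = 0.0102) and without 24h replicate 1 (log2 0.442, adjusted p = 0.0106). It was smaller and did not pass with library totals in place of TMM factors (log2 0.228, adjusted p = 0.106). Insl3 lies wholly inside Jak3 on the same strand and covers 9.54% of it. It was at 0 in every library, as were 99.5% of protein-coding genes in that position. That 0 therefore says nothing of the RNA of Insl3.

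**Figure D2:**
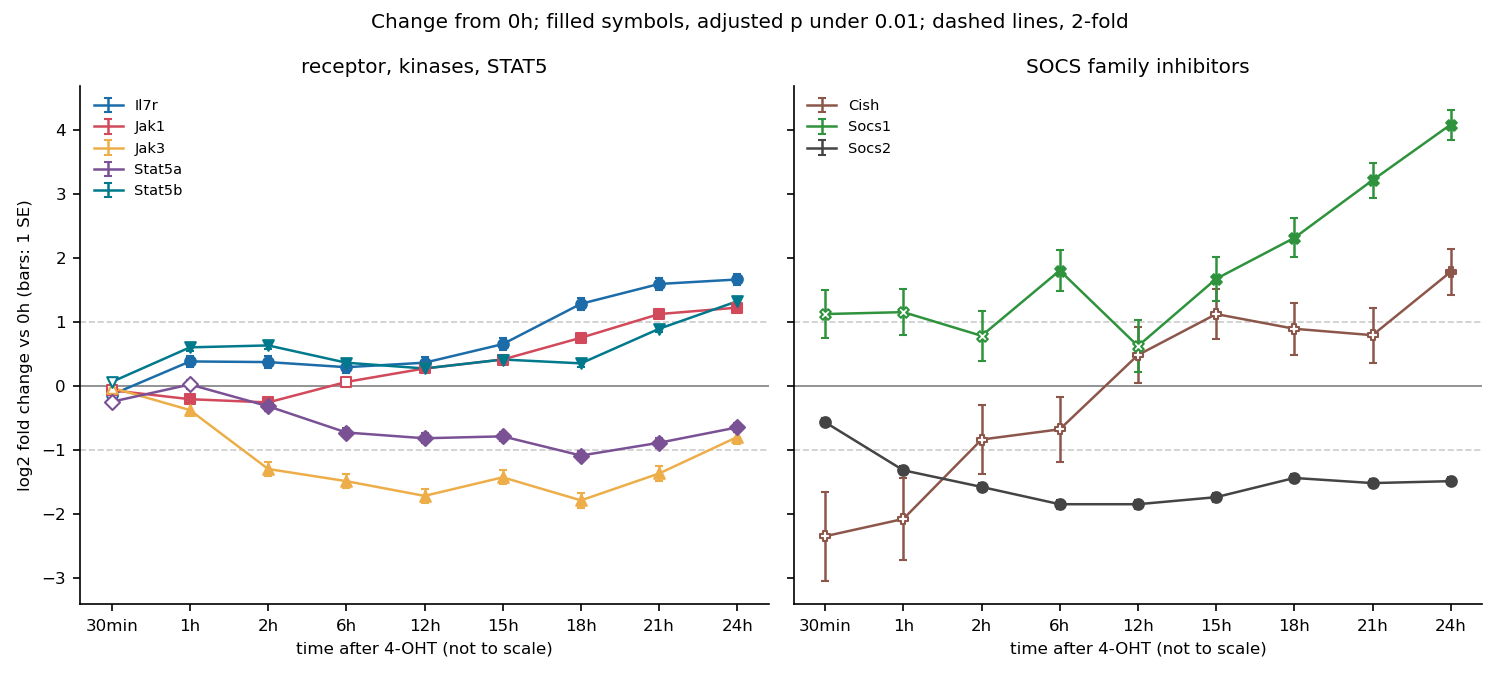
Log2 fold change from 0h (bars, 1 SE of edgeR's fit) of the 8 tested genes at each later time point, not to scale; filled symbols have an adjusted p under 0.01 and dashed lines mark 2-fold. Jak1, Il7r and Stat5b ended above the upper line (1.23, 1.67 and 1.33) and Jak3 and Stat5a below 0, while Socs1 reached 4.09 and Socs2 stayed under the lower line from 1h on.

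STAT5A and STAT5B are closely related factors with largely shared targets, and their genes lie head to head on chromosome 11 with start sites 8.63 kb apart. They moved apart in the time course. Stat5a (ENSMUSG00000004043, chromosome 11, 100859351 to 100885169, + strand) was at 45.3 and 43.6 CPM (0h), 37.7 and 37.6 (30 min), 46.4 and 44.3 (1h), 36.6 and 35.0 (2h), and 28.3 and 25.8 (6h). It was lowest at 18h, at 22.4 and 19.6 CPM, which was the only time at which it was called (log2 -1.08, SE 0.0757, adjusted p = 2.12e-11). Without 18h replicate 2 that fall was just under 2-fold (log2 -0.99, adjusted p = 7.41e-11). At 24h it was at 29.7 and 27.5 CPM, 1.55-fold below 0h (log2 -0.64, SE 0.0746, adjusted p = 9.43e-08). The fall at 2h (log2 -0.31, adjusted p = 0.00087) was about as large but did not pass without 0h replicate 1 (log2 -0.285, adjusted p = 0.0132) or without 2h replicate 2 (log2 -0.278, adjusted p = 0.0174).

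Stat5b (ENSMUSG00000020919, chromosome 11, 100780731 to 100850724, - strand) rose in a first wave by 1h and a second one after 18h. It was at 92.8 and 91.7 CPM (0h), 97.6 and 96.7 (30 min), 143 and 138 (1h), and 145 and 143 (2h). Both 1h libraries lay above every earlier one (log2 0.61, SE 0.0545, adjusted p = 5.96e-09). The level then fell from 2h to 6h (log2 -0.27, SE 0.0541, adjusted p = 0.000362) and stayed at 104 to 124 CPM from 6h to 18h, still above 0h. It rose again to 164 and 181 CPM at 21h and to 232 and 230 CPM at 24h, 2.51-fold above 0h (log2 1.33, SE 0.0546, adjusted p = 1.6e-15). The steps from 18h to 21h (log2 0.54, adjusted p = 1.83e-07) and from 21h to 24h (log2 0.42, adjusted p = 1.03e-05) both passed.

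Within each library the ratio of Stat5b to Stat5a counts went from 2.05 and 2.11 (0h) to 3.95 and 4.07 (2h) and 7.82 and 8.36 (24h). These ratios do not depend on scaling, and their change over time does not depend on gene length, although their size does. No pair of replicates overlapped between 0h, 2h and 24h, but the difference between the genes' fold changes was not tested. Per kb of gene body the ratio was 0.755 and 0.777 at 0h and 2.88 and 3.08 at 24h, so that Stat5a had the higher level per length at 0h and Stat5b at 24h. The order at 0h depends on the length used, since per kb of exon Stat5b was already higher at 0h (16.7 against 6.23 CPM per kb).

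**Figure D3:**
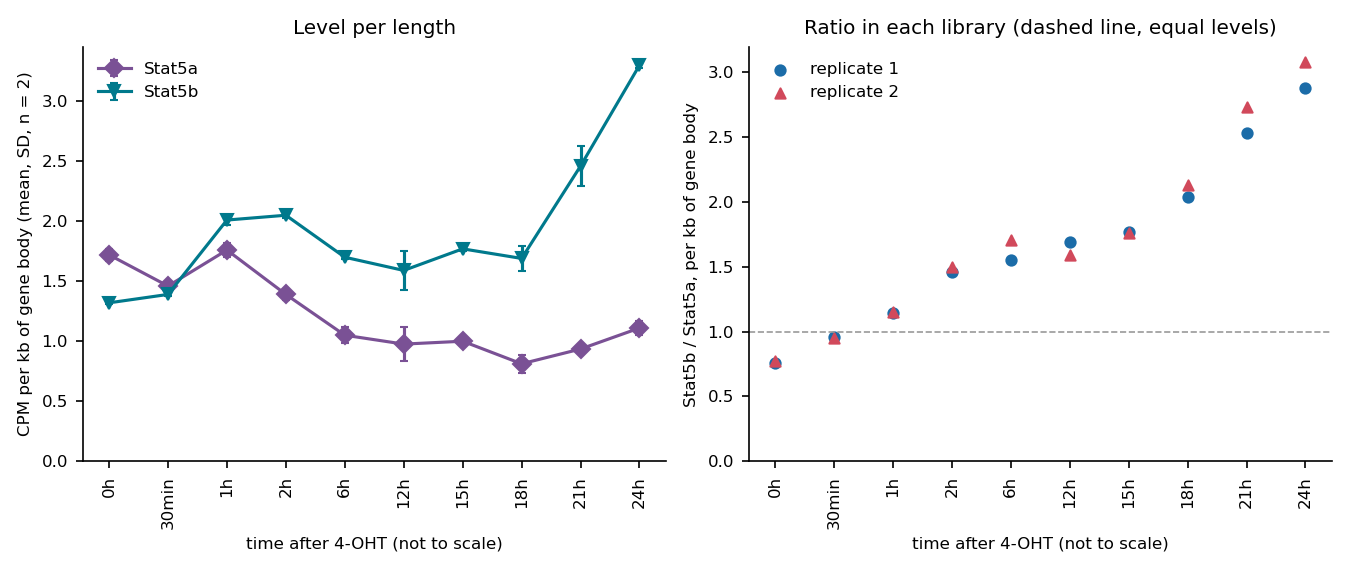
Left, CPM per kb of gene body of Stat5a and Stat5b (mean and SD of 2 libraries); right, their ratio in each library, with a dashed line at equal levels. Time points are in order but not to scale; the ratio was under 1 in both libraries at 0h and 30 min and 2.88 or more in both at 24h.

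The SOCS family genes did not move together. Cish (ENSMUSG00000032578, chromosome 9, 107296026 to 107302784, + strand) encodes the SOCS family member that competes with STAT5 for docking sites on cytokine receptors and is among the best known STAT5 targets. It was hardly covered, with 10 and 8 counts (0h), 1 and 2 (30 min), 3 and 1 (1h), 4 and 5 (2h), and 2 and 9 (6h). The 30 min libraries were both under both 0h libraries, at a ratio of 0.185 in CPM (95% counting interval 0.0349 to 0.633), but the fall did not pass (log2 -2.34, SE 0.692, adjusted p = 0.0254). Counts of 11 and 10 (12h), 17 and 18 (15h), and 19 and 12 (18h) followed. At 24h Cish had 19 and 30 counts, or 0.567 and 0.814 CPM, above the 0.216 and 0.180 CPM of 0h by a ratio of 3.51 (95% counting interval 2.01 to 6.40). That rise was called (log2 1.79, SE 0.361, adjusted p = 0.000124). In the Cish gene 38.9% of the bases are covered by Gm17040 and Gm17041 on the opposite strand, which had 0 or 1 counts in a library. Gm17041 lies wholly inside Cish, a position in which 99.3% of protein-coding genes were at 0, so its 0 sets no limit on its RNA. Whether reads in the shared bases were counted for Cish was not tested.

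Socs1 (ENSMUSG00000038037, chromosome 16, 10782240 to 10785536, - strand) encodes an inhibitor that binds JAK kinase domains directly. Its late rise was larger than that of the other 7 tested genes, from 7 counts in each 0h library to 95 and 94 at 24h. In CPM the change was from 0.151 and 0.158 to 2.83 and 2.55, a ratio of 17.4 (95% counting interval 10.1 to 32.4; log2 4.09, SE 0.234, adjusted p = 5.52e-13). Counts were 14 and 14 at 30 min and 18 and 13 at 1h, above both 0h libraries but not past the threshold (adjusted p = 0.0717 and 0.0215). Socs1 rose at 6h, with 21 and 28 counts (log2 1.81, SE 0.324, adjusted p = 4.66e-05). At 12h it was back at 11 and 7 counts, a fall from 6h (log2 -1.18, SE 0.309, adjusted p = 0.0062). At 15h Socs1 was again above 0h (log2 1.68, SE 0.339, adjusted p = 0.000149). The steps from 12h to 15h and from 15h to 18h did not pass (adjusted p = 0.0295 and 0.057). Those from 18h to 21h and from 21h to 24h passed and added 0.90 and 0.88 (adjusted p = 0.00193 and 0.000541).

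Socs2 (ENSMUSG00000020027, chromosome 10, 95385362 to 95417180, - strand), best known as the inhibitor of growth hormone receptor signalling, was the only one of the 8 tested genes that had fallen at 30 min. Its CPM was 45.7 and 46.3 (0h), 30.6 and 31.9 (30 min), 19.0 and 18.1 (1h), 16.0 and 15.0 (2h), and 13.1 and 12.7 (6h). Each pair of libraries up to 6h lay wholly below the pair before it, and every step passed. The fall was 0.56 on the log2 scale at 30 min (SE 0.0624, adjusted p = 1.78e-06), and 2.96-fold at 2h (log2 -1.57, SE 0.067, adjusted p = 1.72e-14). From 12h to 24h Socs2 stayed at 11.7 to 17.4 CPM. It was at 16.8 and 16.3 CPM at 24h, 2.79-fold below 0h (log2 -1.48, SE 0.0676, adjusted p = 1.02e-14), and did not pass against 2h (log2 0.09, SE 0.0742, adjusted p = 0.287).

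Socs3 (ENSMUSG00000053113, chromosome 11, 117966079 to 117970047, - strand), the inhibitor of receptors of the IL-6 family, had 0 to 6 counts in a library and was not tested. Its 2 libraries held 2 counts together at 0h, against 10 at 6h and 7 in the 24h pair. The ratio of 6h to 0h had a 95% counting interval of 1.08 to 47.7 and that of 24h to 0h one of 0.859 to 44.5. Depth limits any statement on Socs3. These intervals cover counting error only.

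Both directions were present among the 8 tested genes at 1h, 2h and 24h. At 30 min 1 fell (4.74% of all genes tested fell), none rose (3.70% of all genes), and none was called up or down by edgeR, or by DESeq2 among the 6 to which it gave an adjusted p (all but Cish and Socs1), against 0.0542% and 0.410% of all genes, while 4 had an unadjusted p under 0.05. At 1h Il7r and Stat5b rose (19.2% of all genes), Jak1, Jak3 and Socs2 fell (17.1%), and Socs2 was called down (4.84%; 2.33% of all genes were called up). At 2h Il7r and Stat5b were again higher (rose, as did 23.9% of all genes), and Jak1, Jak3, Stat5a and Socs2 fell (23.8%). Jak3 and Socs2 were called down at 2h (6.91% of all genes) and none was called up (6.25%), with 6 at an unadjusted p under 0.05 and none called up by DESeq2. At 24h Il7r, Jak1, Stat5b, Cish and Socs1 rose (35.4%), Jak3, Stat5a and Socs2 fell (36.1%), and the calls were 5 up (20%) and 1 down (20.1%). Of the 5, Cish and Socs1 were tested only through later, higher libraries, so these 2 calls cannot be weighed against the share of all genes. The median log2 fold change of the 8 genes was -0.28 at 2h and 1.28 at 24h, against 0.03 and -0.01 over all genes tested. The 24h median rests in part on Cish (1.79) and Socs1 (4.09). The other 6 were split at 24h, at 1.67 (Il7r), 1.23 (Jak1), 1.33 (Stat5b), -0.79 (Jak3), -0.64 (Stat5a) and -1.48 (Socs2). Against 2h, 6 of the 8 had risen by 24h (33.5% of all genes) and 1, Stat5a, had fallen (32.9%). Of those, Il7r, Jak1, Cish and Socs1 were called up (16.2%). Over the time course as a whole all 8 were changed, as were 51.9% of all genes tested, and 7 were without 18h replicate 2 or with library totals. Cish and Socs1 were under 10 counts in at least 1 library at 0h and passed the low-count filter through later ones, a direction that the filter itself favours. Under library totals in place of TMM factors, the median of all genes at 24h moved to -0.268 and the share of calls that were down from 50% to 62.1%, but each of these 8 genes kept its direction at 24h, with Jak1 then just short of a call and Jak3 called down. All contrasts with 0h share the same 2 libraries.

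Per kb of gene body the order at 0h was Il7r (13.3 ± 0.153 CPM per kb, SD, n = 2), Jak1 (5.23 ± 0.00909), Jak3 (2.00 ± 0.0593), Stat5a (1.72 ± 0.0486), Socs2 (1.45 ± 0.012) and Stat5b (1.32 ± 0.0106). Socs1 (0.0468 ± 0.00137), Cish (0.0293 ± 0.00375) and Socs3 (0.00544 ± 0.0077) lay far below, and each gap in this order was wider than the SDs on either side. With only the bases that no other gene covers as the length, Cish (0.0479 ± 0.00614) and Socs1 (0.0468 ± 0.00137) did not differ beyond their spread. At 24h Il7r was at 42.3 ± 1.49, Jak1 at 12.3 ± 0.0812 and Stat5b at 3.30 ± 0.0228 CPM per kb. Jak3 (1.16 ± 0.0644) and Stat5a (1.11 ± 0.0606) did not differ beyond their spread at 24h, although Jak3 was the higher by more than the SDs with the uncovered bases as the length (1.28 ± 0.0712 against 1.11 ± 0.0608). Socs1 (0.816 ± 0.0605) had passed Socs2 (0.519 ± 0.0106), which it was below at 0h, and Cish was at 0.102 ± 0.0259. With exon length in place of the gene body, Jak1 stood above Il7r at 0h (81.7 against 69.4 CPM per kb of exon). This order therefore holds for a count that includes intronic reads.

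More of the other JAK, STAT and regulator genes rose than fell at 24h. At 2h 8 of the 22 genes of this list rose (23.9% of all genes tested) and 7 fell (23.8%), with a median log2 fold change of 0.11, and Stat4 and Ptpn6 were called down (6.91% of all genes). Stat4, a factor best known from IL-12 signalling, went from 47.1 and 47.6 CPM to 10.1 and 10.3 at 2h (log2 -2.21, SE 0.0567, adjusted p = 3.26e-18) and to 99.7 and 102.8 at 24h. Ptpn6, which encodes the phosphatase SHP-1, a brake on cytokine receptors, went from 34.5 and 37.0 to 10.5 and 11 CPM at 2h (log2 -1.73, SE 0.0756, adjusted p = 2.48e-14). At 24h 15 of the 22 rose (35.4% of all genes) and 4 fell (36.1%), 7 were called up (20%) and 2 down (20.1%), and the median was 0.44 against -0.01 over all genes. Stat3, whose gene overlaps the end of Stat5a by 72 bases on the opposite strand, went from 44.2 and 44.7 to 153.5 and 147.8 CPM at 24h (log2 1.76, adjusted p = 1.28e-17). Ptprc, the phosphatase CD45 of the leukocyte surface (log2 1.37), and Socs5 (log2 1.33) also rose. Sh2b3, an adaptor that restrains JAK signalling, fell from 154.9 and 154.6 to 59.0 and 55.4 CPM (log2 -1.44, adjusted p = 6.7e-15).

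Of the 14 ligand and receptor genes of the gamma chain family and TSLP, 7 were tested. At 2h 1 rose (23.9% of all genes) and 3 fell (23.8%), 2 of them called (6.91%), and Il4ra, the IL-4 receptor alpha chain, was at 7.51 and 7.70 CPM against 15.9 and 15.4 at 0h (log2 -1.04, adjusted p = 8.75e-10). At 24h 2 rose (35.4% of all genes), 1 fell (36.1%) and 1 was called up (20%). That gene was Il2ra, the IL-2 receptor alpha chain CD25 and a surface marker of small pre-B cells. It was at 1.94 and 2.12 CPM (0h), 2.74 and 2.87 (2h) and 42.2 and 39.0 (24h) (log2 4.32, SE 0.0845, adjusted p = 3.86e-21).

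Among 10 further genes known as STAT5 targets, falls outnumbered rises at 2h and 24h. At 2h 1 of the 10 rose (23.9% of all genes) and 6 fell (23.8%), 4 of them called (6.91%), with a median of -0.58. At 24h 3 rose (35.4%) and 6 fell (36.1%), with a median of -0.71. The 2 called up at 24h equal the share of all genes (20%), and 4 were called down (20.1%). Ccnd2, which encodes cyclin D2 of the G1 phase, went from 126 and 129 CPM to 16.6 and 15.5 at 2h and 5.31 and 5.59 at 24h (log2 -2.99 and -4.55, adjusted p = 7.74e-18 and 1.34e-20). Myc, the growth regulator, went from 63.6 and 62.1 to 27.6 and 26.7 and then 5.55 and 4.4 CPM (log2 -1.21 and -3.67). The cytokine gene Osm was called down at 2h (log2 -1.70) and the survival gene Bcl2 at 24h (log2 -2.52). The survival gene Bcl2l1 fell at 2h (log2 -1.29) from 760 and 757 to 307 and 312 CPM and was at 1041 and 1060 at 24h. Pim1, a kinase gene, rose at 24h from 8.12 and 8.80 to 51.6 and 49.0 CPM (log2 2.57, adjusted p = 5.87e-19). The other gene called up at 24h was Ccnd3, which went from 124.3 and 123.7 to 532.8 and 547.2 CPM (log2 2.12, adjusted p = 5.64e-15).

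In the PI3K branch, which IL-7 also feeds, 8 of 9 genes were tested. At 2h 2 rose (23.9% of all genes) and 5 fell (23.8%), each by less than 2-fold, and at 24h 6 rose (35.4%) and 2 fell (36.1%). Foxo1, a factor that PI3K signalling keeps out of the nucleus and that activates Il7r in B cells, was the only one called at 24h. It went from 1094 and 1095 CPM (0h) to 1765 and 1774 (2h) and 7239 and 7293 (24h) (log2 2.73, SE 0.042, adjusted p = 8.82e-23). The 24h libraries stood far above those of 0h and 2h, with 2h in between.

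**Figure D4:**
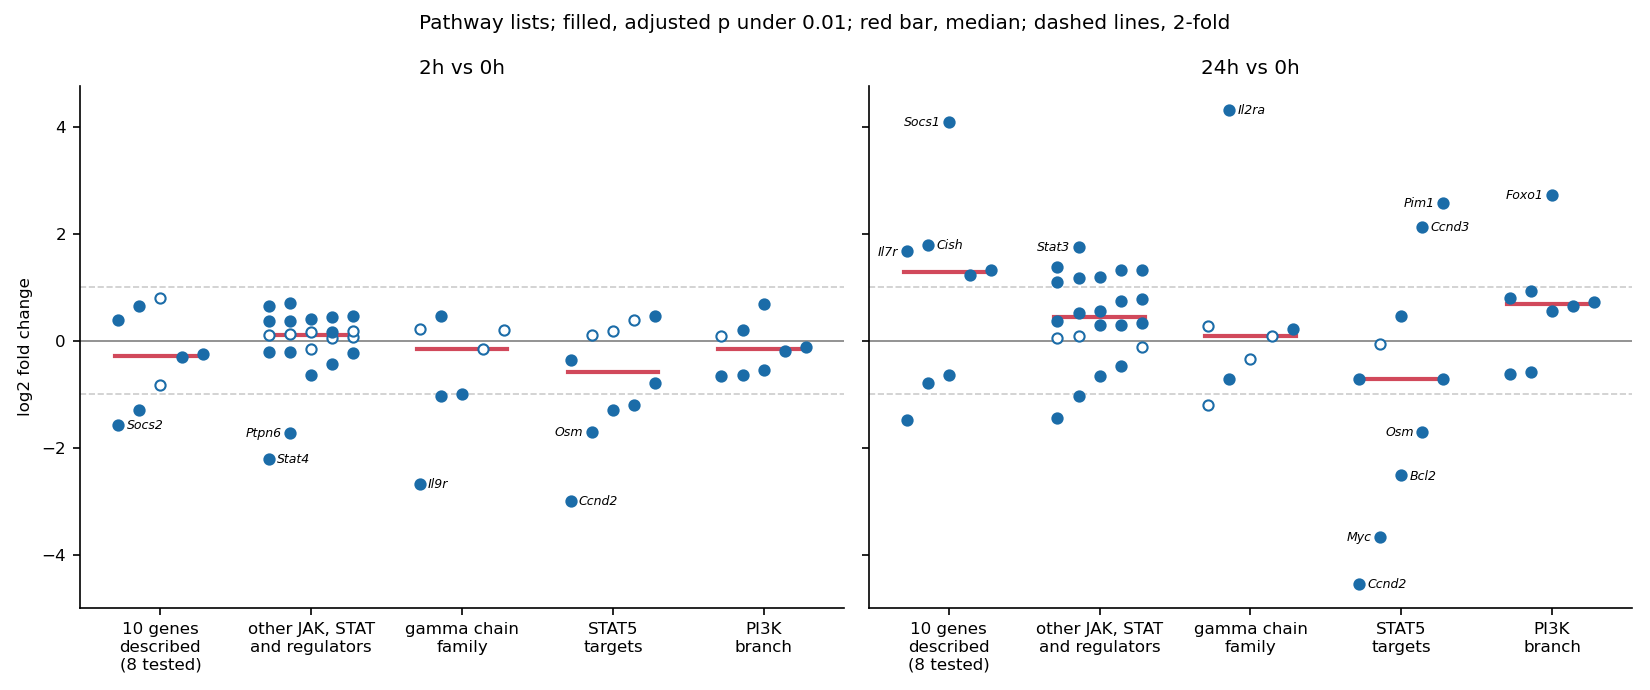
Log2 fold change at 2h (left) and 24h (right) against 0h of the tested genes among the 10 described and of 4 pathway lists; filled points have an adjusted p under 0.01, red bars are medians, dashed lines mark 2-fold, and changes over 1.5 are named. The median of the described genes moved from -0.28 to 1.28, that of the other JAK, STAT and regulator genes from 0.11 to 0.44, and that of the STAT5 targets from -0.58 to -0.71. The median of the described genes includes Cish and Socs1, which passed the low-count filter only through later, higher libraries.

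Profiles over the time points were compared as Pearson's r of log2(CPM + 0.5) means over 10 time points, a description in which points share libraries and many genes follow a few courses. Il7r went most closely with Jak1 (r = 0.924) and Socs1 (0.900) among the tested genes, Jak3 with Stat5a (0.867) and Socs2 (0.841), and Stat5a with Stat5b at -0.244. Of 12055 other genes with a mean of at least 1 CPM, those most like Il7r were Cntn4 (0.993), Dock11 (0.992) and Sec63 (0.989), and 237 had an r of 0.95 or more. A likeness of that size to Il7r was thus shared by many genes. For Cish the most alike were Pqlc2 (0.959), Ly6e (0.957) and Hmcn2 (0.957), and 4 genes reached 0.95. Cish itself did not exceed 0.814 CPM in any library, so counting error and the added 0.5 weigh on its profile.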

How the data were processed

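Chromatin-associated RNA was sequenced (75 bp paired-end, a directional kit with rRNA depletion) from B3 cells at 10 time points with 2 replicates each. Reads were mapped to mm10 by the authors (STAR, in the nf-core/rnaseq pipeline), who deposited raw counts per gene, made with featureCounts and including intronic reads; the submitters' processing notes name CASAVA 2.17 and GRCm38. The annotation release and strand setting of the counting are not given in the sources used here. Groups and replicate numbers came from the sample titles, which do not say whether replicates were separate cultures, so p-values measure the spread between these libraries, which may be technical.

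The 16601 genes that had 10 or more counts in 2 or more libraries entered edgeR 4.0.16 in R 4.3.3, with 1 fit of all 20 libraries by time point, TMM factors and the quasi-likelihood test, with Benjamini-Hochberg adjustment over all of them, an adjusted p under 0.01 and, for a call, a fold change above 2. The script was tested on simulated data. SE is the log2 fold change divided by the square root of its F value. Gene positions and lengths came from GENCODE M21, which held 55240 of the 56239 counted identifiers. Counting intervals are exact binomial intervals (95%) on the counts of both groups, scaled by effective library size. Depth of 33296158 to 46868954 counts per library leaves Cish, Socs1 and Socs3 with few counts, and reads carry no molecular identifiers.

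The 10 genes and the pathway lists were chosen with earlier results of these data known. The text names all 10, up to 4 called genes of each list with the largest change at 2h and at 24h and a mean of at least 1 CPM, the 3 genes most like Il7r and Cish, and genes that overlap a member. Outside this rule it also names Ccnd3, a STAT5 target called up at 24h. Alternatives were DESeq2 size factors, library totals, other count filters, a replicate block, DESeq2 1.42.0, an adjusted p under 0.05, a model of only the groups compared, each library left out in turn, and other gene lengths, of which the length free of other genes was added after the data were seen.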

Additional observations from a re-analysis of the deposited data

How the results depend on the processing

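Of the log2 fold changes of the 8 tested genes under the alternatives, 865 kept their direction and their side of the threshold, 21 no longer passed, 13 newly passed and 4 changed sign. The 4 were values near 0 or small, Jak3 at 30 min (0.0102 without 0h replicate 1 and -0.0498 without the other), Stat5a at 1h (-0.00139 without 0h replicate 2, -0.005 without 1h replicate 1 and 0.0604 without the other 1h library) and Socs2 at 24h against 2h (-0.181 with library totals). Members called down at 30 min were 1 with an adjusted p under 0.05, against 0, and members called down at 24h were 2 with library totals, against 1. Members called up at 24h were 3 with at least 10 counts in every library, against 5, since fewer genes were tested and Cish and Socs1 were not among them. Without any 1 library, the counts of calls stayed at 0 up and 0 down at 30 min, 0 up and 2 down at 2h, and 5 up and 1 down at 24h. The replicate block changed none of these calls and left 5 up and 1 down at 24h. Over 11870 genes the deviations of same-numbered libraries had a mean correlation of 0.00102 over 45 pairs of time points, with 3 pairs over 0.1, so the numbers were not taken to pair libraries. Depth limits Cish, Socs1 before 6h and at 12h, and Socs3.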

Other observations

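Neighbouring genes within 200 kb of each of the 10 were looked at after the values were seen, and the genes below were picked for their change. At Socs2, 2 of 6 tested neighbours were called down at 2h (6.91% of all genes), 5730420D15Rik, which lies 195 bases away (log2 -1.91, adjusted p = 1.07e-08), and Nudt4 at 147 kb (log2 -2.64, adjusted p = 1.71e-20). Nudt4, which encodes a phosphatase of inositol polyphosphates, had already fallen at 30 min (log2 -2.21, adjusted p = 4.29e-18), and its mean went from 184 CPM at 0h to 29.5 at 2h and 28.7 at 24h. At Il7r, all 3 tested neighbours were called up at 24h (20% of all genes), Ugt3a2 (log2 1.57), Gm5219 (1.05) and Capsl (1.26), and all 3 had risen by 2h (0.39, 0.71 and 0.87). At Socs3, 8 of 10 tested neighbours were called down at 24h (20.1% of all genes). Between Stat5a and Stat3, which end within the same stretch of chromosome 11, the changes at 24h were opposite in sign (log2 -0.64 and 1.76).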
